A study of Mus musculus with 2 samples.

Results

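Guanylate-binding proteins (Gbp) and immunity-related GTPases (Irg) are 2 families of interferon-inducible GTPases, and 10 of their genes are described here in endothelial cells (ECs) of implanted mouse tumours. The genes were chosen by name as Gbp2, Gbp3, Gbp4, Gbp5 and Gbp7 of the Gbp family and Igtp, Irgm1, Irgm2, Iigp1 and Ifi47 of the Irg family. All 10 were found among the 17139 genes listed for both libraries. The ECs came from subcutaneous Lewis lung carcinoma (LLC) tumours of male C57BL/6 J mice that were 8 to 9 weeks old at implantation. One tumour was injected with 14 µg of cGAMP, the cyclic dinucleotide that binds STING, in 70 µl, and the other with PBS. Live CD45-/CD31+ cells were sorted after 24 h according to the methods, whereas 1 legend of the study gives 6 h. Each group was therefore 1 library from 1 mouse, with no gene deleted in either, so no test between the groups was possible and no p-value is given. Every interval below is a 95% interval that covers counting error only, and PBS or cGAMP cannot be told apart from the mouse, the tumour or the library.

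Gbp and Irg proteins bind and hydrolyse GTP, and cells make them in quantity once interferon has signalled through its receptors. They assemble on the vacuoles or the surface of intracellular pathogens, break these membranes, and bring bacterial products into reach of inflammasome sensors. Among the Irg proteins, Irgm1, Irgm2 and Igtp (also called Irgm3) sit on the cell's own membranes and keep the effectors, such as Iigp1 and Ifi47, inactive there. In the mouse the genes lie in tandem clusters, with Gbp2, Gbp3, Gbp5 and Gbp7 close together on chromosome 3, Gbp4 on chromosome 5, and Igtp, Irgm1, Irgm2 and Ifi47 on chromosome 11.

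The promoter sequences of 7 of the 10 genes show the core letters of the element through which interferon-activated factors are known to act. The core of the interferon-stimulated response element (ISRE) was searched as GAAANNGAAA on both strands, in the 250 bases before each transcription start that RefSeq lists on GRCm38.p6. An entry was matched for 8 of the 10 members, and 7 of these 8 genes held the core, as did 2.98% of all 32851 promoters searched. The 7 promoter stretches are printed because they show how alike the elements are. Each is written 5′ to 3′ on the strand that reads GAAA, with the core in capitals.
Gbp2, chr3:142620579-142620638, minus strand: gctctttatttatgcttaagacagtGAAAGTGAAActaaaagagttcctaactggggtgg
Gbp3, chr3:142559974-142560039, minus strand: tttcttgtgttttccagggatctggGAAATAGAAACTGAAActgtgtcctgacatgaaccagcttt
Gbp5, chr3:142496744-142496803, minus strand: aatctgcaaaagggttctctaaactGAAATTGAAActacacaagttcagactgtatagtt
Gbp7, chr3:142530258-142530317, minus strand: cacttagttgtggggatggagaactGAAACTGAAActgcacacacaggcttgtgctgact
Igtp, chr11:58199497-58199555, plus strand: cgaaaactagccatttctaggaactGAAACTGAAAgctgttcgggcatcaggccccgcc
Irgm1, chr11:48871421-48871475, minus strand: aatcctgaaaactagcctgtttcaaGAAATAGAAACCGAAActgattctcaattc
Irgm2, chr11:58214888-58214947, plus strand: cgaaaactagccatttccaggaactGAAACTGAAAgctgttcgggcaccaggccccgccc

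Gbp7, Igtp and Irgm2 carried the same core letters, and Gbp3 carried them within a run of 2 overlapping cores. Irgm1 also had 2 overlapping cores, the nearer of which ended 14 bases before its start. The stretches of Igtp and Irgm2 were identical at 57 of 59 positions. In 6 of the 7 genes the core ended between 14 and 54 bases before the start, and in Gbp5 it ended 155 bases before it. A second RefSeq start of Gbp3 and the start of Ifi47 had no match of these letters in this window. The palindromic interferon-gamma-activated site (GAS), searched as TTCNNNGAA, was held by Gbp5, Gbp7, Igtp and Irgm2, which are 4 of the 8, and by 7.02% of all promoters. In Igtp and Irgm2 the GAS letters ended 2 bases before the ISRE core began, so the 2 elements lay side by side in the stretches printed above. These are matches of letters, and no binding was measured.

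After PBS, the 10 members were already found in tumour ECs, and after cGAMP the level of each was higher. Levels are unique molecular identifiers (UMIs, single counted transcripts) summed over all ECs of a library, and scaled to 1000000 UMIs of that library (CPM). A log2 ratio of 1 or more, which is a doubling, was used as the mark of size. It was reached by 9 of the 10 members, against a background of 1.82% of the 9509 genes that had 5 CPM or more in the PBS or the cGAMP library. The median log2 ratio of the members was 1.45, with a counting interval of 1.40 to 1.50, beside a median of -0.08 over all genes tested. Summed over the 10 members, the level was 501 CPM after PBS and 1404 CPM after cGAMP, which is 2.80-fold.

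Among the Gbp genes, Gbp2, whose protein coats pathogen vacuoles, stood at 68.5 CPM (66.8 to 70.2) after PBS and at 195 CPM (192 to 199) after cGAMP. Gbp3 stood at 39.6 CPM after PBS and at 103 CPM after cGAMP. For both genes the cGAMP library was higher and the counting intervals did not overlap, with log2 ratios of 1.51 (1.47 to 1.55) for Gbp2 and 1.38 (1.32 to 1.44) for Gbp3. Gbp4, known as an inhibitor of IRF7 activation, stood at 49.0 CPM after PBS and at 148 CPM after cGAMP. Its log2 ratio of 1.60 (1.55 to 1.65) was the highest of the 5 Gbp genes, with an interval that met that of Gbp2. Gbp5, which promotes inflammasome assembly in macrophages, stood at 18.2 CPM after PBS and at 48.9 CPM after cGAMP. The cGAMP library was again the higher, by a log2 ratio of 1.42 (1.34 to 1.51). Gbp7, which binds components of the oxidase and of autophagy, stood at 77.0 CPM after PBS and at 148 CPM after cGAMP. It was higher after cGAMP by 0.95 (0.90 to 0.99) and was the one member that stayed under a doubling.

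Among the Irg regulators, Irgm1, which restrains the effector GTPases and takes part in autophagy, stood at 39.7 CPM (38.4 to 41.0) after PBS and at 176 CPM (173 to 179) after cGAMP. Its log2 ratio of 2.15 (2.09 to 2.20), or 4.43-fold, was the largest of the 10 members and exceeded that of 99.6% of the genes tested. Igtp stood at 26.1 CPM after PBS and at 84.8 CPM after cGAMP. The cGAMP library was the higher, with a log2 ratio of 1.70 (1.63 to 1.77). Irgm2, a brake on the non-canonical inflammasome, stood at 10.5 CPM after PBS and at 24.9 CPM after cGAMP. It was also higher after cGAMP, with a log2 ratio of 1.25 (1.13 to 1.37), the lowest of the Irg members, although its interval met that of Ifi47. The interval of Irgm1 thus lay above, and that of Gbp7 below, those of all other members.

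Of the Irg effectors, Iigp1, which attacks parasite vacuoles, stood at 140.5 CPM (138 to 143) after PBS and at 388 CPM (383 to 393) after cGAMP. Ifi47 stood at 32.1 CPM after PBS and at 86.1 CPM after cGAMP. The cGAMP library was the higher for both, and their log2 ratios, 1.47 (1.43 to 1.50) and 1.43 (1.36 to 1.49), overlapped in their intervals. The summed level of the 3 regulators went from 76.3 to 286 CPM, or 3.74-fold, and that of the 2 effectors from 173 to 474 CPM, or 2.75-fold. Summed by family, the 5 Gbp genes were 2.55-fold and the 5 Irg genes 3.05-fold higher after cGAMP.

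**Figure D1:**
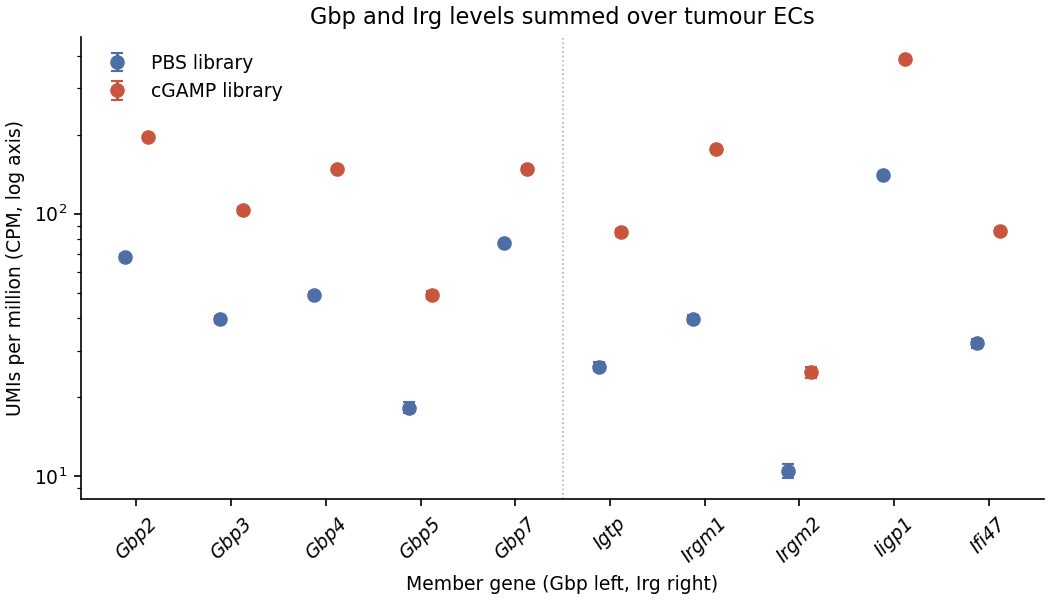
Level of each member gene in CPM (log axis), summed over the ECs of the PBS library (blue) and of the cGAMP library (red), with 95% counting intervals. Every member is higher in the cGAMP library, from 1.93-fold for Gbp7 to 4.43-fold for Irgm1.

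Some members share sequence with other genes, which bears on these counts. Igtp and Irgm2 overlap on the plus strand of chromosome 11 in GENCODE (58199556 to 58207591 and 58199618 to 58222782 on GRCm38), and droplet counting leaves out reads that fit both. Their last 500 bases had no 90-base word in common with each other or with any other gene. The same was true of Gbp2, Gbp5, Gbp7, Irgm1 and Iigp1. Of such words at their own ends, Gbp3 shared 0.450% with Gbp7 transcript sequence outside the last 500 bases of its coding transcripts. Gbp4 shared 8.22% with Gbp6, Gbp9, Gbp11 or Gm43302, and Ifi47 shared 1.76% with Olfr56.

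The cells of the libraries were checked by markers. The 7 pan-endothelial markers were all found, summing to 4477 CPM after PBS and 4975 CPM after cGAMP. Only Egfl7 was higher after cGAMP, at 1182 and 2122 CPM, and the other 6 were lower, with Pecam1 at 944 and 824 CPM. The median depth of a cell was 29780 UMIs after PBS and 41178 after cGAMP, the median mitochondrial share 4.49% and 2.87%, and 1 cell barcode occurred in both libraries. With cells thinned to 5000 UMIs the median log2 ratio of the members was 1.42, and with cells of at most 5% mitochondrial UMIs it was 1.40. All 4 neutrophil markers were higher after cGAMP, with S100a8 at 0.337 and 6.68 CPM, and so were all 8 macrophage or monocyte markers, which summed to 47.5 and 99.1 CPM. Most of these 2 sums was Cd14 alone, at 32.5 and 67.9 CPM. Of the T or NK cell markers 2 of 5 were analysed here and summed to 0.228 and 0.126 CPM, and of the B cell markers 1 of 2, Cd79a at 1.08 and 1.12 CPM. The 3 general leucocyte markers summed to 13.1 and 10.1 CPM, with Ptprc (CD45), which the sort selected against, at 0.250 and 0.600 CPM, Coro1a at 9.64 and 6.72 CPM and Laptm5 at 3.17 and 2.76 CPM. In the cells with no UMI of any leucocyte marker (855 after PBS and 156 after cGAMP) the median log2 ratio of the members was 1.35 and all 10 were higher after cGAMP. Counting only cells with Pecam1 and Cdh5 and without Ptprc, it was 1.45.

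The members were found in more cells after cGAMP. Because cells of the cGAMP library were deeper, each cell was thinned to 5000 UMIs, which left out 70 PBS and 13 cGAMP cells with fewer. At this depth Irgm1 was found in 15.9% of 2447 ECs after PBS (14.4 to 17.4) and in 53.0% of 1327 ECs after cGAMP (50.2 to 55.7). Iigp1 was found in 29.9% and 58.3%, Gbp2 in 18.2% and 40.0%, and Gbp7 in 28.0% and 44.2%. The shares were 15.5% and 35.6% for Gbp3, 18.1% and 43.4% for Gbp4 and 6.99% and 16.6% for Gbp5. They were 10.2% and 29.6% for Igtp and 12.7% and 31.3% for Ifi47. The cGAMP share was the higher for all 10 members at 5000 UMIs, at 10000 UMIs and without thinning. Irgm2 was found in 5.60% and 11.5%. Without thinning, Irgm1 was found in 51.4% and 94.4% of ECs. Lyz2, a myeloid gene that ECs should lack, was found at 5000 UMIs in 2.37% of PBS and 5.65% of cGAMP cells, and every member lay above it in its own library.

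Within a cell, the members tended to occur together. After PBS, 30.1% of thinned ECs had no UMI of any member (28.3 to 31.9) and 6.91% had 5 or more of the 10 members (5.93 to 7.98). After cGAMP, 7.39% had none (6.04 to 8.93) and 34.0% had 5 or more (31.4 to 36.6). The median cell went from 1 to 5 member UMIs, yet the libraries overlapped widely. Of PBS cells, 12.8% held as many member UMIs as the median cGAMP cell or more, and of cGAMP cells, 19.6% held no more than the median PBS cell. The highest 10% of cells held 55.2% of all member UMIs after PBS and 36.4% after cGAMP. Member UMIs were thus more unevenly spread over cells in the PBS library.

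**Figure D2:**
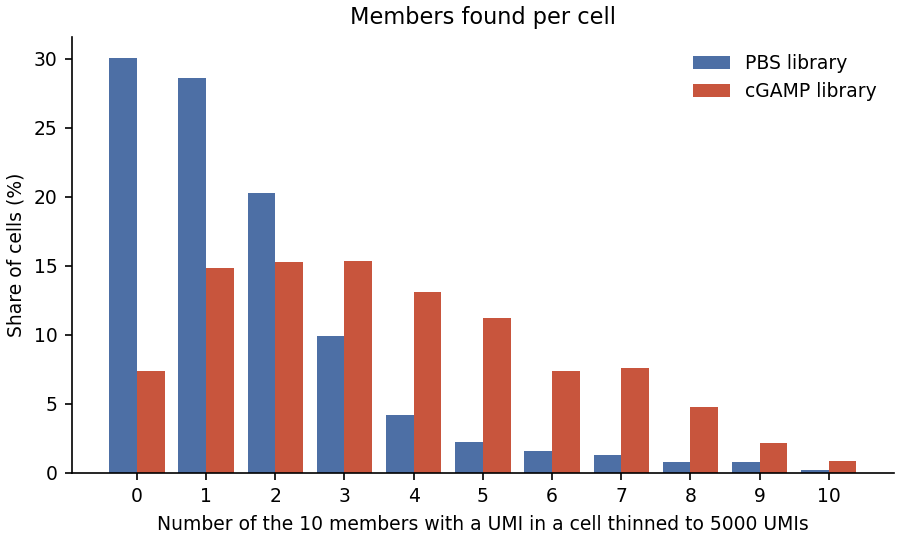
Share of cells (%) by the number of the 10 members with at least 1 UMI, in cells thinned to 5000 UMIs, for the PBS library (blue bars) and the cGAMP library (red bars). Cells with no member make up 30.1% of the PBS library and 7.39% of the cGAMP library, and the cGAMP bars extend to higher numbers.

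Across cells thinned to 20000 UMIs, the Spearman correlation was positive for all 45 member pairs in both libraries. It ranged from 0.18 to 0.42 over the 1836 PBS cells, with a median of 0.29, and was highest for Gbp7 with Iigp1. Over the 1168 cGAMP cells it ranged from 0.27 to 0.59, with a median of 0.47, and was highest for Gbp2 with Iigp1. The lowest pair was Gbp3 with Irgm2 after PBS and Irgm1 with Irgm2 after cGAMP. This depth left out 681 PBS and 172 cGAMP cells, and the cells kept held a mean of 10.3 and 28.7 member UMIs. At 5000 UMIs all 45 pairs were again positive, but the medians lay closer, at 0.20 over 2447 PBS cells and 0.24 over 1327 cGAMP cells. Whether the smaller counts of member UMIs bear on the lower correlations in the PBS library was not tested. The cells of a library share its free RNA and its preparation, and these correlations are given as a description.

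The members differed between EC states within each library. Cells were clustered without the members, without the pathway genes listed further on, and without genes that differed 2-fold or more between the libraries, which gave 8 clusters. By fixed markers these were a stalk-like (venous) cluster led by Ackr1 and Selp, an arterial cluster led by Gja4 and Nts, a proliferative cluster led by Ube2c and Cenpf, and 2 tip-like clusters led by Gal and Chga and by Pgf and Ankrd1. Clusters led by Ramp3 and Esm1, by Ung and Hells, and by Igfbp5 and Ctsh stayed unnamed. The last of these raised 13 of the 15 stalk-like markers, but none of them was among its leading 10 genes. Each cluster held cells of both libraries, and the smallest held 45 PBS and 50 cGAMP cells. No doublet caller was run, and the rebuilt clusters need not be those of the study.

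After PBS, the summed level of the 10 members was highest in stalk-like ECs, at 802 CPM (785 to 819). It was 625 CPM in Gal and Chga tip-like ECs, 577 in arterial ECs, 491 in the Ramp3 and Esm1 cluster and 435 (395 to 477) in the Igfbp5 and Ctsh cluster. It was 357 CPM in proliferative ECs, 336 in the Ung and Hells cluster and 259 (243 to 276) in Pgf and Ankrd1 tip-like ECs. The highest and the lowest of these states differed 3.09-fold (2.89 to 3.31), and every neighbour in this order was apart beyond its counting interval. These intervals do not cover the spread between cells, and part of the order was reversed in thinned PBS cells. There, mean member UMIs were 3.06 in arterial and 3.02 in Gal and Chga tip-like ECs. They were 2.70 in the Igfbp5 and Ctsh cluster and 2.40 in the Ramp3 and Esm1 cluster. All other neighbours kept their order. By single genes, 6 members were highest in stalk-like ECs and 4 in Gal and Chga tip-like ECs. Gbp2 was at 121 CPM (116 to 127) in Gal and Chga tip-like ECs and at 110 CPM (103 to 116) in stalk-like ECs, which did not differ beyond their intervals, and at 58.8 CPM or less elsewhere. Gbp4 was highest in stalk-like ECs at 79.6 CPM and in arterial ECs at 76.0 CPM, also within their intervals, and lowest in Pgf and Ankrd1 tip-like ECs at 22.5 CPM. Of the 5 Gbp genes, arterial ECs ranked 2 for Gbp4 alone. The levels of Iigp1 ran from 48.9 CPM in Pgf and Ankrd1 tip-like ECs to 291 CPM in stalk-like ECs, and those of Gbp5 from 6.12 to 35.1 CPM between the same clusters. Irgm1 varied least, from 26.7 CPM in the Igfbp5 and Ctsh cluster to 49.6 CPM in Gal and Chga tip-like ECs, and 6 of its 7 neighbouring pairs of clusters overlapped in their intervals.

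After cGAMP, stalk-like ECs were again highest, at 2346 CPM (2322 to 2370). The Igfbp5 and Ctsh cluster followed at 1845 CPM, Gal and Chga tip-like ECs at 1658, arterial ECs at 1244, Pgf and Ankrd1 tip-like ECs at 1177 and the Ung and Hells cluster at 1128. Proliferative ECs at 826 CPM (810 to 843) and the Ramp3 and Esm1 cluster at 821 CPM (804 to 838) were lowest and did not differ beyond their counting intervals. The interval of Pgf and Ankrd1 tip-like ECs met those of arterial ECs and of the Ung and Hells cluster. By single genes, 8 members were highest in stalk-like ECs. For Iigp1 and Gbp5 the intervals met those of the Igfbp5 and Ctsh cluster, where they stood at 693 and 82.6 CPM. Among the 8, Iigp1 was at 728 CPM in stalk-like ECs, Gbp4 at 240 CPM, Irgm1 at 239 CPM, Gbp7 at 221 CPM, Gbp3 at 150.4 CPM and Igtp at 146 CPM. In proliferative ECs the same genes were at 221, 85.8, 127, 102, 70.5 and 46.8 CPM, all lower than in stalk-like ECs beyond their counting intervals. The exceptions were Gbp2, highest in Gal and Chga tip-like ECs at 381 CPM beside 348 CPM in stalk-like ECs, and Irgm2, at 47.4 CPM in the Igfbp5 and Ctsh cluster beside 44.4 CPM in stalk-like ECs, where the intervals overlapped. The Pgf and Ankrd1 tip-like ECs, lowest for Iigp1 also after cGAMP at 184 CPM, came for Gbp2 right after those 2 clusters, at 248 CPM.

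**Figure D3:**
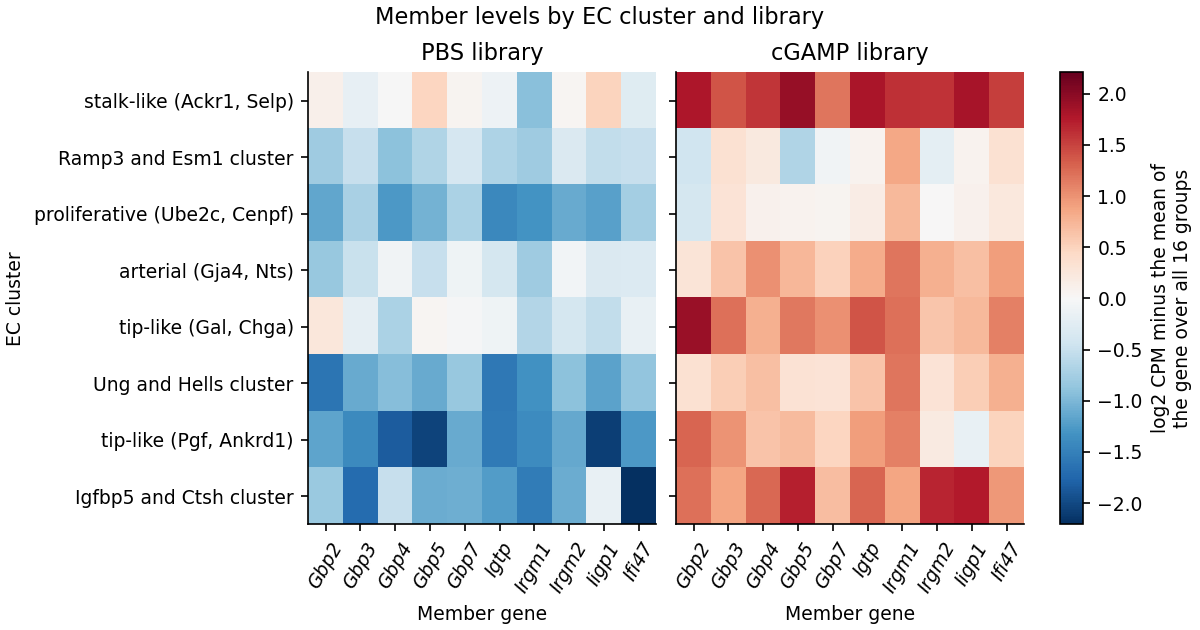
Level of each member (columns) in each EC cluster (rows) of the PBS library (left) and the cGAMP library (right), as log2 CPM minus the gene's mean over all 16 cluster and library groups. Stalk-like ECs are the reddest row after cGAMP for most members, and Pgf and Ankrd1 tip-like ECs are among the bluest after PBS, where Gbp5 was 6.12 CPM.

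The log2 ratio was above 0 for every member in every cluster, although for Gbp5 and Irgm2 in the Ramp3 and Esm1 cluster it lay within counting error. In stalk-like ECs all 10 members reached a doubling, against 2.55% of the genes tested there, with a median log2 ratio of 1.58. All 10 also reached it in Gal and Chga tip-like ECs (2.07% of genes, median 1.35) and in the Ung and Hells cluster (2.09% of genes, median 1.66). The highest medians were those of the clusters with the fewest cells. All 10 reached a doubling in Pgf and Ankrd1 tip-like ECs (4.66% of genes, median 2.43) and in the Igfbp5 and Ctsh cluster (6.14% of genes, median 2.46). In the latter the PBS counts were small, for instance 10 UMIs of Ifi47 and 7 of Irgm2, so that the log2 ratio of Ifi47, 3.16, had an interval of 2.23 to 4.26.

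In proliferative ECs 7 members reached a doubling (1.69% of genes, median 1.12), and in arterial ECs also 7 (2.21% of genes, median 1.12). The Ramp3 and Esm1 cluster stood lowest. Only Gbp4 and Irgm1 reached a doubling there, against 1.52% of genes, and the median log2 ratio was 0.68. In that cluster Gbp5 was at 15.9 CPM in both libraries, with a log2 ratio of 0.01 (-0.27 to 0.28). Irgm2 was at 11.7 CPM after PBS and 12.6 after cGAMP, with a log2 ratio of 0.10 (-0.21 to 0.42). For these 2 genes a difference between the libraries was within counting error at this depth. Gbp2 went there from 58.8 to 74.6 CPM, whereas in Gal and Chga tip-like ECs it went from 121 to 381 CPM. Irgm1 was the most even, with a log2 ratio from 1.64 in the Ramp3 and Esm1 cluster to 2.55 in stalk-like ECs, and it exceeded a doubling in all 8 clusters.

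**Figure D4:**
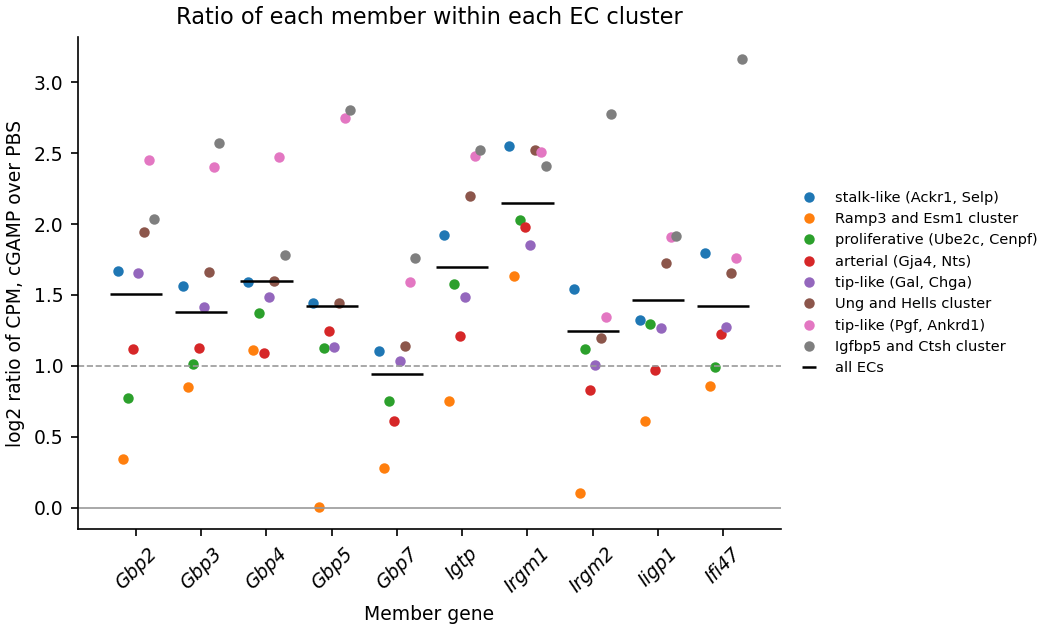
Log2 ratio of CPM, cGAMP over PBS, of each member within each of the 8 EC clusters (coloured points) and over all ECs (black lines), with the doubling as a dashed line. The Ramp3 and Esm1 cluster (orange) has the lowest point for 9 of the 10 members, and the point of Gbp5 there lies at 0.01.

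The mix of states also differed between the libraries, with stalk-like ECs making up 16.4% of cells after PBS and 26.6% after cGAMP. When both libraries were given the same cluster proportions, the median log2 ratio of the members was 1.37 and 9 of 10 still reached a doubling. The shares of cells also differed between states, though not in the order of the levels. In thinned stalk-like ECs 5 or more members were found in 11.0% of 401 cells after PBS (8.09 to 14.4) and in 56.8% of 354 cells after cGAMP (51.4 to 62.0). In the Ramp3 and Esm1 cluster this share went from 7.14% to 13.9%. More Gal and Chga tip-like than arterial ECs held no member UMI, 34.5% against 19.4% after PBS and 11.8% against 5.31% after cGAMP. By summed CPM without thinning, Gal and Chga tip-like ECs were the higher of the 2 in both libraries. In the thinned cells their mean was 3.02 against 3.06 member UMIs after PBS, and 7.92 against 6.43 after cGAMP. Among Pgf and Ankrd1 tip-like ECs 60.6% of 99 cells had no member UMI after PBS (50.3 to 70.3) and 11.9% of 59 cells after cGAMP (4.91 to 22.9).

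The genes around the members were read from lists of the pathway, counting those with at least 5 CPM after PBS or after cGAMP. The 10 members had at least 5 CPM in both libraries. A gene that passed after cGAMP alone had to be higher there, so such genes are named and no support is drawn from these counts. Among 16 other Gbp and Irg family genes, of which 3 were not analysed here, 6 had at least 5 CPM, all 6 were higher after cGAMP and 4 reached a doubling. These were Tgtp1 (2.86 to 12.9 CPM), Tgtp2 (3.81 to 14.7 CPM), Gm4951 (11.3 to 38.1 CPM) and F830016B08Rik (6.75 to 20.2 CPM). Tgtp1 and Tgtp2 passed the minimum after cGAMP alone, and at a minimum of 20 CPM 2 of 4 genes reached a doubling. Tgtp1 and Tgtp2 are near-identical copies, with 100% of the 90-base words at the end of Tgtp2 also in Tgtp1, and the division of reads between them is uncertain. Of the other large GTPases, 3 of 5 had at least 5 CPM and none of these reached a doubling, with a median log2 ratio of 0.85, and Gvin1 passed after cGAMP alone. Mx1, under the minimum, stood at 1.62 and 3.52 CPM with a log2 ratio of 1.12.

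Upstream of the members, no interferon receptor or Janus kinase reached a doubling in either direction, and the 7 genes had a median log2 ratio of 0.05. Of the 7, 4 were higher and 3 lower after cGAMP. They ran from a log2 ratio of -0.72 for Ifnar1, at 56.0 and 34.1 CPM, to 0.35 for Ifnar2. Ifngr1, the ligand-binding chain of the interferon-gamma receptor, was at 117 CPM after PBS and 113 after cGAMP. Of 10 transcription factors, 2 reached a doubling, Irf7 at 82.7 and 651 CPM and Batf2 at 2.29 and 10.3 CPM. Batf2 passed the minimum after cGAMP alone, and at 20 CPM 1 of 9 factors reached a doubling. Irf1, which acts at ISRE elements, was at 56.8 and 94.5 CPM. It was higher after cGAMP by a log2 ratio of 0.73, less than each of the 10 members. Of 5 feedback inhibitors, Socs1 (6.64 to 17.8 CPM) and Usp18 (20.7 to 52.0 CPM) reached a doubling.

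Downstream, the genes through which Gbp and Irg proteins are loaded onto membranes and lead to cell death differed less. The 10 genes of the ubiquitin-like conjugation machinery of autophagy, such as Atg5 and Gabarapl2, had a median log2 ratio of -0.10 and none reached a doubling in either direction. None of the 6 ubiquitin and adaptor genes did so either, and of these Trim21 passed after cGAMP alone. The 5 inflammasome and pyroptosis genes with at least 5 CPM were all higher after cGAMP, with a median of 0.65 and none past a doubling. Of the interferon-gamma-biased genes with at least 5 CPM, 6 of 8 reached a doubling, namely Cxcl9 (130 to 1151 CPM), Cd74, H2-Ab1, Cd274, Psmb9 and Tap1. Of the type I interferon-biased antiviral genes, 10 of 16 did, namely Ifit1, Ifit3, Isg15, Oasl1, Oasl2, Oas1a, Oas2, Oas3, Usp18 and Ifi44. H2-Ab1, Oas2 and Oas3 passed the minimum after cGAMP alone, and at 20 CPM the counts were 5 of 7 and 8 of 14. The background for all these counts of doublings is the 1.82% given above.

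**Figure D5:**
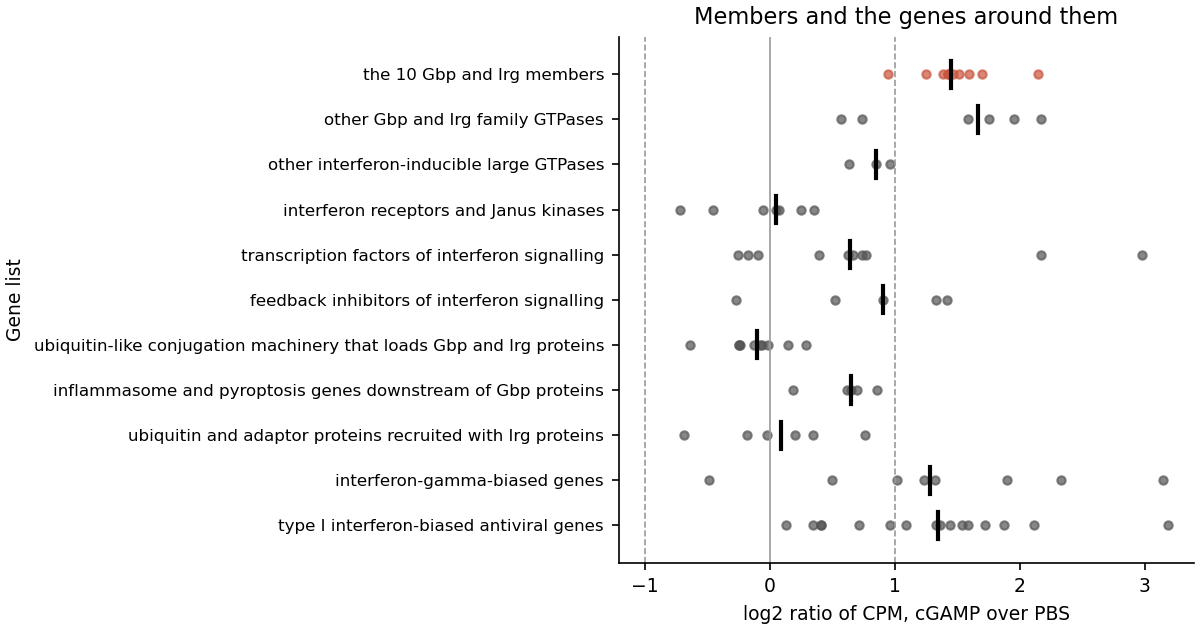
Log2 ratio of CPM, cGAMP over PBS, of the 10 members (red points) and of the genes of each list that had 5 CPM or more in one of the libraries (grey points), with the median of each as a black bar and doublings as dashed lines. The members have a median of 1.45, and the medians of the receptors with the Janus kinases and of the conjugation machinery are 0.05 and -0.10.

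Over the 16 cluster and library groups, the genes whose level followed the members most closely were found by Pearson correlation of log2(CPM + 5) with the mean of the standardised member levels. Among the 10 highest of 6035 genes were Psmb10, Tap2, Parp9, Trim30a, Lgals8, Tapbp, Dhx58, Psmb8 and H2-M3, from 0.98 down to 0.93. Irf1 (0.86) and Irf7 (0.87) ranked 64 and 47, and Ifngr1 (0.46) ranked 643. The members themselves correlated with their mean between 0.91 for Iigp1 and 0.99 for Igtp. Each member is part of that mean, so these values are not comparable with those of the other genes. The 16 groups share 2 libraries, so the points are not independent.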

How the data were processed

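The authors aligned droplet-based single-cell reads to mm10 with Cell Ranger 3.0.0 and filtered and normalised cells with Seurat 3.1.1, and kept endothelial cells with 500 genes or more and at most 10% mitochondrial UMIs. The deposited values are natural log values, ln(1 + UMIs per 10000 UMIs of the cell), for 2517 PBS and 1340 cGAMP ECs. Here the logarithm was undone, and 100% of values above 0 came within 0.01 of a whole UMI count. The libraries held 92081146 and 63366746 UMIs.

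UMIs were summed per library or cluster and scaled to CPM, with exact Poisson, Clopper-Pearson and conditional binomial intervals (SciPy). Clustering used Seurat 5.3.0 in R 4.3.3, with 1772 of 2500 variable genes after the exclusions, integration anchors, 30 principal components and a Louvain resolution of 0.5. A marker counted as raised at 2-fold. The calculation of the ratio and its interval was checked on Poisson counts simulated from the pooled means, with known folds set for some genes. Such counts follow the model of the interval, so this check does not bear on the spread between cells or mice. Genes were named by rule: the members, list genes past a doubling, Irf1 and Ifngr1, and the 10 most similar genes, with 1 gene not reported here; others were chosen after their values were seen. Gene positions are from GENCODE vM21. Members and lists were chosen with earlier results of these data known. Alternatives are given in the closing section.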

Additional observations from a re-analysis of the deposited data

How the results depend on the processing

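All 10 members stayed higher after cGAMP under every setting tried on the whole libraries, and 9 or 10 of them reached a doubling. The median log2 ratio of 1.45 became 1.39 with the mean of per-cell CPM, 1.52 with median-of-ratios scaling, which raised every ratio by 0.07, 1.37 with equal cluster proportions and 1.35 without cells that held a leucocyte marker. It was 1.40 when the leucocyte markers found in many ECs were kept out of that filter, a setting chosen after seeing the data, and it moved by less than counting error when cells were thinned or limited to 5% mitochondrial UMIs. Gbp7 was the lowest under each of these settings, between 0.77 and 1.02. The background share of 1.82% became 4.33% with no minimum other than 1 UMI in both libraries. Within clusters, the lowest and highest medians of 0.68 and 2.46 became 1.10 and 1.61 at a resolution of 0.3, and the lowest became 0.25 without integration. The 3.09-fold spread of member levels over PBS clusters became 3.99-fold after thinning and 2.18-fold at a resolution of 0.3, and the 2.86-fold spread after cGAMP became 2.45-fold at that resolution. No paired analysis was possible because each group holds 1 library. The depth limits Irgm2 and Gbp5 most, and in clusters with few PBS cells. There is no replicate, so no value here bears on the spread between mice.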

Other observations

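When the libraries were clustered without integration, 1 cluster led by Lpl and Cxcl10 held 42 PBS and 429 cGAMP ECs. In it the summed level of the 10 members was 1858 CPM after PBS and 2059 CPM after cGAMP, and the median log2 ratio of the members was 0.25. In stalk-like ECs of the same clustering the level was 669 CPM after PBS and 2351 CPM after cGAMP, with a median of 1.92. The 42 PBS ECs of the Lpl and Cxcl10 cluster thus had a summed member level near that of the cGAMP ECs placed with them. It was above the 1404 CPM of the whole cGAMP library. Members and listed genes were kept out of that clustering, but other interferon-responsive genes were not, so this is a description of the cluster.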
